A study of Mus musculus with 6 samples.

Results

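CD8+ T cells taken from mice 4 days after the N4 peptide were compared with cells taken 4 days after the T4 peptide. The comparison rests on 4 of the 6 libraries of the series, 2 for each peptide. Genes were included when they reached at least 1 CPM (counts scaled to a common library total) in both libraries of N4 or in both libraries of T4. This held for 13070 of 55414 genes, of which 10311 reached that level in both groups, 295 in N4 only and 2464 in T4 only. The cut used library totals alone, without the TMM scaling, described below, that all other levels carry. On the TMM scale it was stricter in N4 than in T4, and the 295 and 2464 genes are to be read with that difference.

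All cells had the OT-I genotype and are labelled as CD8+ T cells of spleen and lymph nodes, while the design text of the series names the spleen alone. Both peptide groups also received the antibodies anti-OX40 and anti-41BB, which engage 2 costimulatory receptors of the tumour necrosis factor receptor family. No library analysed here came from cells given either peptide without the antibodies. Naive OT-I cells in 2 libraries were the unstimulated reference, and their values are given beside the peptide groups. The labels used here give neither the age of the mice nor the number of mice per library nor the gate used to isolate the cells.

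OT-I is a transgenic T cell receptor that recognises a fragment of ovalbumin presented by a class I major histocompatibility molecule. N4 is the ovalbumin fragment itself, and T4 is an altered form of it that differs at a residue facing the receptor and stimulates the same receptor less potently. Ligand engagement activates kinases next to the receptor, then MAP kinase, calcium and NF-kB signalling, which induce AP-1, EGR, NFAT and IRF transcription factors. In CD8+ T cells this leads to division, to loss of lymph node homing molecules and to the production of cytotoxic granules and cytokines. Stronger ligands are known to sustain that programme for longer, whereas weaker ones can begin it.

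The libraries held from 269033066 to 335968843 estimated counts. Counts above 0 were found for 21317 and 21579 genes in N4 and for 27098 and 27147 in T4. The 100 genes with the most counts held 41.9% and 45.4% of all counts in N4 but 32.8% and 34.1% in T4. TMM scaling factors, which allow for such differences in composition, were 0.641 to 0.821 in N4 and 1.28 to 1.36 in T4. Without them the median log2 fold change over every gene tested moved from -0.20 to -1.05, so a list is read here against the median of all genes. The label was checked on 8 CD8 T cell markers, whose summed level was 11161.5 and 13746.2 CPM in N4 against 7724.1 and 8325.8 in T4, with naive libraries at 10609.5 and 14010.0. None of the 8 markers passed the threshold between the peptides, and the 5 CD4 and regulatory T cell markers summed to 3.22 and 3.81 CPM in N4 and 1.85 and 1.27 in T4. Cd4, the defining marker of helper T cells, was at 0 in both N4 libraries and at 0.052 and 0.062 CPM in T4, while Cd40lg, a helper ligand that activated CD8+ T cells can also express, was at 1.49 and 0.601 against 0.121 and 0.0181. None of the 5 passed.

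In N4 against T4, 801 of 23003 genes tested were higher in N4 (3.48%) and 1029 were lower (4.47%) at an adjusted p under 0.05 in edgeR's quasi-likelihood test with Benjamini-Hochberg adjustment. The same test and adjustment stand behind every adjusted p for a gene's level given here. Calls on a list are to be read beside the shares of 3.48% and 4.47%, and a list near them does not stand out from all genes. Of the 13070 genes included, 784 were higher and 830 lower. The other 216 genes past the threshold lay below the inclusion level. The share of calls that were higher in N4 was 43.8%, and it was 15.6% when libraries were scaled by their totals alone. Where the N4 and T4 libraries of a gene do not overlap, leaving out 1 library can hardly turn its direction. Leaving out N4 replicate 2 or T4 replicate 2 left no gene past the threshold (4752 and 3818 at an unadjusted p under 0.05), while all 1830 calls kept their direction in both cases. Without N4 replicate 1 there were 295 calls and without T4 replicate 1 there were 45, so none of the calls given here held with every peptide library left out in turn.

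The 15 genes with the largest increases in N4 code for proteins of metal binding, surface signalling, killing, migration, division and sterol synthesis. Mt3, a metal-binding metallothionein best known from brain, was at 59.6 and 98.8 CPM in N4 against 0.627 and 1.11 in T4, with naive libraries at 0.797 and 1.19. The N4 libraries lay far above all the others, and the log2 fold change was 6.51 (SE 0.52, adjusted p = 0.013). Ptprk, a receptor tyrosine phosphatase, was at 35.1 and 55.6 CPM in N4 and at 1.09 and 1.26 in T4. Naive libraries were near the T4 level at 1.51 and 1.64, and the log2 fold change between the peptides was 5.27 (SE 0.36, adjusted p = 0.013). Ly6a, which encodes the surface protein Sca-1 that activated T cells carry, was at 5626.2 and 8186.4 CPM in N4 and at 243.9 and 302.2 in T4. Its naive libraries were unequal, at 285.7 and 1801.4, and the difference between the peptides was 4.66 on the log2 scale (SE 0.90, adjusted p = 0.039).

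The remaining 12 of the 15 had log2 fold changes from 3.08 to 4.14. They were the actin-binding protein gene Nebl, the calcium-binding protein genes S100a4 and S100a6, the chemokine receptor Cxcr6, the protease Gzmb, the replication factor Pclaf, the survival gene Bcl2a1d, the costimulatory receptor Slamf1, the granzyme inhibitor Serpinb9, the inhibitory lectin-like receptor Klrc1, the cyclin Ccne2 and the sterol pathway enzyme Idi1. In all 15 both N4 libraries were above both T4 libraries, which the naming rule required. Naive libraries lay nearer to the T4 mean than to the N4 mean on the log scale in each of them, except for naive replicate 2 in Ly6a and both naive libraries in Cxcr6.

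**Figure D1:**
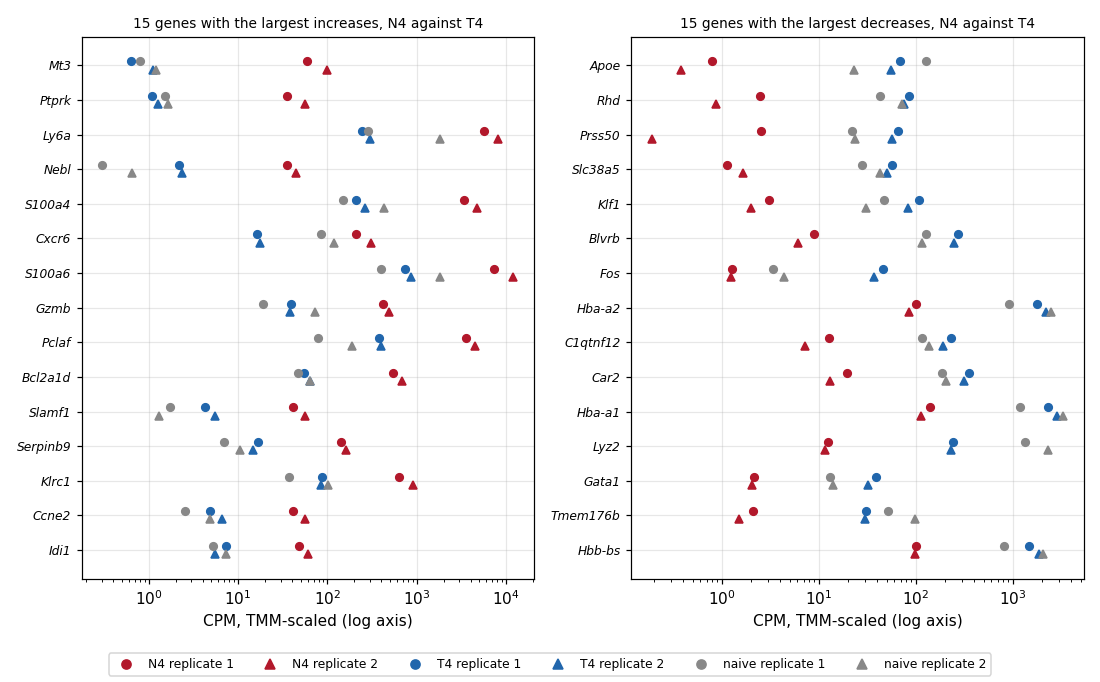
CPM in each library (log axis) of the 15 genes with the largest increases (left) and the 15 with the largest decreases (right) in N4 against T4; red is N4, blue T4 and grey naive, circles are replicate 1 and triangles replicate 2. No N4 point overlaps a T4 point, which the choice of genes required. Mt3, at 59.6 and 98.8 CPM in N4 against 0.627 and 1.11 in T4, is at the top left.

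The largest decreases in N4 were mostly in genes known from red cell precursors and myeloid cells. Klf1, a transcription factor of red cell precursors, was at 3.03 and 2.02 CPM in N4 against 108.2 and 82.3 in T4, with naive libraries at 46.4 and 30.9. T4 was highest and N4 lowest, without overlap, at a log2 fold change of -5.24 (SE 0.40, adjusted p = 0.013). As for the increases, the naming rule required that N4 and T4 not overlap in any of the 15 decreases. Gata1, the master regulator of red cell precursors, the Rh antigen gene Rhd, the haem degradation enzyme Blvrb, the carbonic anhydrase Car2, the amino acid transporter Slc38a5, the secreted protein gene C1qtnf12 and the globins Hba-a1, Hba-a2 and Hbb-bs showed log2 fold changes of -5.59 to -4.07. The globins come in near-identical copies, so the division of counts among them is uncertain. Apoe, a lipid carrier made by macrophages, was at 0.797 and 0.381 CPM in N4 and 68.0 and 55.0 in T4, and Lyz2, the lysozyme of myeloid cells, at 12.4 and 11.6 against 242.7 and 230.0. The set was completed by Fos, described with its family, by Prss50, a protease gene, and by Tmem176b, a membrane protein gene of dendritic cells.

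Marker lists of other cells moved with the peptide groups. The 8 red cell markers summed to 425.7 and 361.7 CPM in N4 against 6618.2 and 8205.7 in T4, with naive libraries at 3493.2 and 9262.3. Alas2, an enzyme of haem synthesis, was at 0 in both N4 libraries. The 12 macrophage and monocyte markers summed to 27.4 and 23.0 CPM in N4, to 305.3 and 297.0 in T4 and to 2342.8 and 2793.1 in naive libraries, with the macrophage genes Adgre1 and Spic at 0 in N4. The 11 B cell and plasma cell markers summed to 18.4 and 14.7 CPM in N4, to 101.6 and 102.8 in T4 and to 511.3 and 2901.2 in naive libraries, with Blk, Cr2, Fcrla and Pax5 among those at 0 in N4. On each of these lists N4 was lowest, and for macrophage and B cell markers naive libraries stood above both peptide groups.

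Of the red cell markers 6 of 8 were lower in N4 and none higher, as were 5 of 12 macrophage, 6 of 11 B cell, 5 of 7 natural killer cell and 3 of 9 tested stromal, endothelial and platelet markers. The 3 on the last list were the platelet genes Itga2b, Pf4 and Ppbp, and 3 of its 9 tested members had a positive log2 fold change. So did 2 of the 12 macrophage markers, and none of these positive ones passed. Blk, a kinase of the B cell receptor, was at 0.750 and 1.51 CPM in T4 and was at least 79.9-fold lower in N4, from a floor of 3 counts per library. Dendritic cell markers summed to 101.8 and 85.3 CPM in N4 and 573.7 and 556.2 in T4, with Siglech at 0 in N4. On that list the class II genes H2-Aa, H2-Ab1 and H2-Eb1 were lower and Batf3, a transcription factor that activated T cells also express, was higher. The natural killer cell markers summed to 85.0 and 79.5 CPM in N4 and 614.6 and 694.9 in T4. Neutrophil markers went the other way, at 49.2 and 38.9 CPM in N4 and 14.3 and 6.48 in T4, and none of the 10 passed the threshold. Naive libraries stood far above both peptide groups for neutrophil markers, at 2469.3 and 25306.6 CPM, and differed widely from each other. The naive values of single genes given here come from libraries with these marker levels, whose part in those values was not tested. The part of other cells in the gene differences was not tested. In such bulk samples, fewer cells of a type and less of its RNA per cell cannot be told apart.

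**Figure D2:**
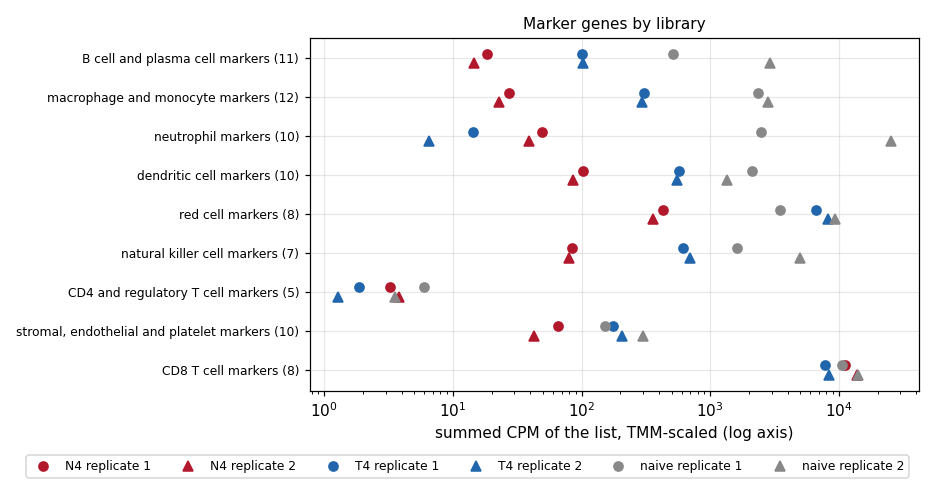
Summed CPM (log axis) of each marker list in each library, with the number of genes in parentheses; red is N4, blue T4 and grey naive. The red cell markers lie at 361.7 to 425.7 CPM in N4 and 6618.2 to 8205.7 in T4, while CD8 T cell markers lie above 7724 CPM in all libraries.

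The receptor itself and the enzymes next to it came first among the lists. The antigen receptor complex and proximal signalling list holds the receptor chains, the kinases and adaptors they activate, and the inhibitors that restrain them. None of its 27 genes passed the threshold in either direction, and the median log2 fold change was -0.25, beside -0.20 over all genes. The smallest p belonged to Themis, an adaptor that tunes receptor signalling, with 23.9 and 33.1 CPM in N4 and 11.3 and 9.62 in T4. Its groups did not overlap, and its log2 difference of 1.44 (SE 0.34, adjusted p = 0.054) fell short of the threshold. Csk, the kinase that holds the receptor's Lck kinase inactive, was at 21.4 and 15.6 CPM in N4 and 38.1 and 35.4 in T4 (log2 difference -0.99, SE 0.31, adjusted p = 0.096). After a correction for transcript length and GC content these differences were 0.69 for Themis and -0.13 for Csk (adjusted p = 0.20 and 0.67).

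Among 29 genes that respond to the antigen receptor, 2 were higher and 5 lower in N4, and the median was -0.44. The 5 lower ones were AP-1 and EGR transcription factors, the immediate early genes that are transcribed within minutes of a stimulus. Fos was at 1.26 and 1.25 CPM in N4 and at 45.7 and 37.0 in T4. Naive libraries, at 3.40 and 4.38, were close to N4, so that T4 alone was high, and the log2 fold change between the peptides was -5.04 (SE 0.31, adjusted p = 0.013). Jun, the partner of Fos, was also highest in T4, with 10.9 and 16.1 CPM in N4 against 131.9 and 135.1 in T4, with naive libraries at 7.85 and 1.95 (log2 fold change -3.31, SE 0.67, adjusted p = 0.042). In the same order of groups, Egr1 was at 4.75 and 3.73, 57.4 and 66.0, and 9.50 and 2.78 CPM, and Fosb at 1.54 and 3.35, 22.6 and 28.1, and 0.499 and 0.496. Their T4 libraries exceeded all others, whereas for Junb the naive libraries, at 253.0 and 199.2 CPM, lay near T4 at 302.8 and 288.5 rather than near N4 at 100.1 and 82.7. Junb did not pass after the length and GC correction (adjusted p = 0.13).

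The 2 genes of that list that were higher in N4 were Il2ra and Batf3. Il2ra, the high-affinity chain of the interleukin 2 receptor, was at 21.8 and 18.8 CPM in N4 against 0.914 and 0.452 in T4, with naive libraries at 0.761 and 0.661. T4 and naive cells shared the low level, and the log2 fold change was 4.89 (SE 0.45, adjusted p = 0.014). Batf3 was at 14.1 and 20 CPM in N4 and 4.36 and 3.74 in T4, a log2 fold change of 2.07 (SE 0.39, adjusted p = 0.036). None of the 7 NFAT, NR4A and TOX genes and none of the 7 IRF and NF-kB genes passed. Irf4, an IRF gene that scales with receptor signal strength, was at 6.77 and 8.51 CPM in N4 and 2.34 and 3.52 in T4 (log2 difference 1.38, SE 0.62, adjusted p = 0.20). Nr4a1, a gene often used to report receptor signals, overlapped between the groups, at 13.5 and 3.05 CPM in N4 and 8.75 and 9.65 in T4.

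Of 13 MAP kinase phosphatases and Sprouty genes, which damp MAP kinase signals, 1 was lower in N4 and the median was -0.80. Dusp1 was at 4.82 and 7.09 CPM in N4 against 93.0 and 96.1 in T4, with naive libraries at 22.2 and 76.7. T4 was highest, at a log2 fold change of -3.99 (SE 0.64, adjusted p = 0.028), and the adjusted p was 0.057 after the length and GC correction. Dusp1 shares exon bases with another protein-coding gene, and the library kit does not mark strand, which makes its value less certain.

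**Figure D3:**
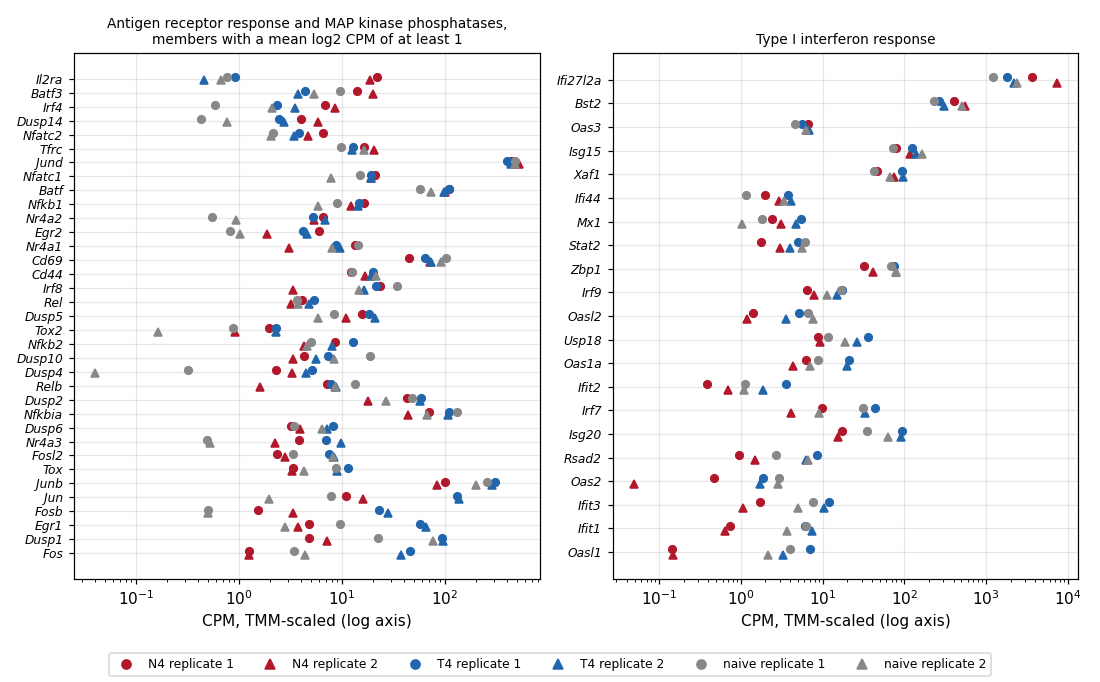
CPM in each library (log axis) of antigen receptor response genes and MAP kinase phosphatases whose mean log2 CPM was 1 or more (left) and of type I interferon response genes (right), ordered by log2 fold change; red is N4, blue T4 and grey naive. Fos lies at 37.0 to 45.7 CPM in T4 and at 1.25 to 1.26 in N4, at the foot of the left panel, and Il2ra shows the converse at its head.

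Of 29 interleukin receptor and JAK-STAT genes, 2 were higher, 1 was lower and the median was 0.09. Besides Il2ra, the interleukin 18 receptor chain Il18r1 was higher, at 14.6 and 15.4 CPM in N4 against 4.30 and 6.0 in T4. Il10ra, a chain of the receptor for the inhibitory interleukin 10, was lower, at 2.97 and 2.29 against 9.95 and 13.1 (log2 fold change -2.13, SE 0.36, adjusted p = 0.031). Il7r, the survival receptor of resting T cells, was at 21.8 and 31.6 CPM in N4 against 13.8 and 15.1 in T4, with naive libraries at 55.7 and 65.8, and did not pass between the peptides (adjusted p = 0.095).

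Of 26 costimulatory receptors and ligands, 3 were higher in N4 and none lower, with a median of 0.33. Slamf1, a self-binding receptor, was at 40.8 and 56.7 CPM in N4 against 4.26 and 5.53 in T4, with naive libraries at 1.73 and 1.29 (log2 fold change 3.32, SE 0.33, adjusted p = 0.016). Cd226, a receptor for nectin-like ligands, was at 93.9 and 130.8 against 18.8 and 17.2 CPM, and Icos, a relative of CD28, at 78.6 and 105.4 against 27.5 and 28.9. N4 was the highest group for all of them. The receptors of the antibodies were given a separate look: Tnfrsf4, which encodes OX40, was at 10.1 and 4.22 CPM in N4 against 0.901 and 1.69 in T4, with naive libraries at 1.34 and 1.01. Its groups did not overlap and its adjusted p was 0.054, at a log2 difference of 2.47 (SE 0.57). Tnfrsf9, which encodes 4-1BB, was at 21.6 and 22.8 CPM in N4 and 15.5 in both T4 libraries (log2 difference 0.52, SE 0.38, adjusted p = 0.41).

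Inhibitory receptors, which restrain T cells after activation, had 3 of 17 genes higher in N4 and none lower, with a median of 0.33. Cd200 was at 31.6 and 49.2 CPM in N4 and 8.94 and 8.53 in T4 (log2 fold change 2.21, SE 0.29, adjusted p = 0.023). Cd244a was at 15.3 and 18.8 against 5.49 and 6.28 CPM, and Havcr2, which encodes TIM-3, at 5.39 and 7.70 against 1.29 and 1.9. None of these 3 passed under library size scaling. Pdcd1, which encodes PD-1, overlapped between the peptides at 29.0 and 12.3 CPM in N4 and 19.0 and 14.0 in T4, above naive libraries at 1.97 and 6.15. Lag3 did not pass either, with 13 and 9.31 CPM in N4 and 17.6 and 15.2 in T4 (adjusted p = 0.36).

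Killer lectin-like receptors, shared by natural killer cells and effector CD8+ T cells, had 3 of 8 genes higher and 1 lower. Klrc1, the inhibitory NKG2A chain, was at 636.9 and 905.0 CPM in N4 against 86.9 and 85.2 in T4, with naive libraries at 36.7 and 102.6, a log2 fold change of 3.16 (SE 0.53, adjusted p = 0.031). Its partner Klrd1, at 463.6 and 684.0 against 171.5 and 193.0 CPM, and Klrc2, at 45.4 and 63.4 against 10.8 in both T4 libraries, were also higher, though neither passed after the length and GC correction (adjusted p = 0.20 and 0.059). Klrb1c, the NK1.1 antigen, was lower, at 0.996 and 1.48 CPM against 11.3 and 9.61. It is also on the list of natural killer cell markers, whose sum was lower in N4 too.

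The cytotoxic granule list, made up of granzymes, perforin and their helpers, had 2 of 13 tested genes higher, none lower and a median of 1.07. Gzmb, the protease that triggers death of the target cell, was at 422.9 and 486.7 CPM in N4 against 39.4 and 38.4 in T4, with naive libraries at 19.0 and 71.9. N4 lay well above both other groups, at a log2 fold change of 3.55 (SE 0.64, adjusted p = 0.034). Serpinb9, which shields the killer cell from its own granzyme B, was at 142.7 and 161.6 CPM in N4 and 16.5 and 14.8 in T4 (log2 fold change 3.28, SE 0.31, adjusted p = 0.014). Gzma, another granzyme, was at 759.7 and 983.9 against 246.5 and 267.5 CPM and did not pass (adjusted p = 0.083). Perforin, encoded by Prf1, makes pores in the target membrane. It was at 8.09 and 4.77 CPM in N4 and 9.52 and 9.10 in T4 (log2 difference -0.53, SE 0.34, adjusted p = 0.35).

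Of 16 tested cytokines and chemokines, 1 was higher and none lower, with a median of 0.88. Ifng, the interferon that activates macrophages, was at 117.0 and 39.3 CPM in N4 against 12.3 in both T4 libraries, with naive libraries at 3.08 and 5.88. Both N4 libraries were above T4, at a log2 fold change of 2.67 (SE 0.59, adjusted p = 0.049), and the call was lost under library size scaling (adjusted p = 0.11) and under the length and GC correction (adjusted p = 0.051). The N4 libraries differed from each other on this list, and the median less that of all genes was -0.27 without N4 replicate 1. Ccl4, a chemokine released by activated CD8+ T cells, was at 1196.6 CPM in N4 replicate 1 and 50.1 in N4 replicate 2, against 64.6 and 70.6 in T4. Ccl3, another such chemokine, was at 451.3 and 25.9 against 75.0 and 85.2 CPM, and Xcl1, which attracts dendritic cells, at 688.2 and 140.1 against 60.0 and 72.7. For Ccl3 and Ccl4 1 N4 library was above and the other below both T4 libraries, and none of the 3 chemokines passed.

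That spread between the N4 libraries went beyond chemokines. Over 7450 genes that reached 8 CPM, the median absolute log2 ratio between replicates was 0.35 in N4 and 0.16 in T4. Replicates differed more than 2-fold for 409 of these genes (5.49%) in N4 and for 30 (0.403%) in T4. Myc, the growth regulator, was at 28.5 and 6.54 CPM in N4 and 33.4 and 31.4 in T4, and Cdkn1a, a cell cycle inhibitor, at 48.8 and 8.31 against 4.10 and 6.30. Il2, the T cell growth factor, was at 17.3 and 3.07 against 2.77 and 3.11 CPM. N4 replicate 1 was the higher one for all of these, which were chosen after their values were seen. The spread also ran the other way: 29 genes were 4-fold higher in N4 replicate 1 and 8 in N4 replicate 2. Hypk, at 147.5 and 1350.7 CPM in N4, was higher in replicate 2.

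Among transcription factors of effector and memory cells 1 of 21 was higher and 2 were lower, beside 3.48% and 4.47% of all genes tested. The median of -0.44, less that of all genes, turned positive under the length and GC correction and without N4 replicate 2. Id2, which favours effector cells, was at 1059.2 and 1529.5 CPM in N4 against 194.9 and 217.7 in T4, with naive libraries at 355.8 and 684.7 (log2 fold change 2.65, SE 0.41, adjusted p = 0.027). Its relative Id3, associated with memory precursors, was lower, at 192.9 and 203.3 CPM in N4 and 491.2 and 540.9 in T4, but had an adjusted p of 0.075 after the length and GC correction. Myb, which maintains stem-like T cells, was at 7.33 and 8.46 CPM in N4 and 28.3 and 27.0 in T4, with naive libraries at 4.73 and 9.96. T4 alone was high for Myb, at a log2 fold change of -1.81 (SE 0.39, adjusted p = 0.048). Prdm1, which encodes the effector factor Blimp-1, was at 2.98 and 4.80 CPM against 0.359 and 0.607 (adjusted p = 0.075). Tcf7, a factor of naive and memory cells, was at 32.7 and 26.7 CPM in N4 against 45.1 and 40.2 in T4, with naive libraries at 89.6 and 43.5 (adjusted p = 0.40 between the peptides).

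Genes of naive and memory surface and survival had 2 of 20 lower and none higher, with a median of -0.47. Btg2, an antiproliferative gene of quiescent T cells, was at 78.3 and 76.0 CPM in N4 and 159.6 and 170.4 in T4 (log2 fold change -1.10, SE 0.22, adjusted p = 0.041). Naive libraries, at 192.5 and 174.4, were the highest. Ccr7, a chemokine receptor for entry into lymph nodes, overlapped between the peptides, at 41.9 and 8.88 CPM in N4 and 18.6 and 16.9 in T4.

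Of 22 chemokine receptors and integrins, which direct migration, 1 was higher and 3 were lower, with a median of 0.00. Cxcr6, a receptor of tissue-seeking effector cells, was at 210.8 and 310.1 CPM in N4 against 16.2 and 17.5 in T4, with naive libraries at 84.8 and 118.2. N4 was highest and T4 lowest, at a log2 fold change of 3.95 (SE 0.34, adjusted p = 0.013). The follicle-homing receptor Cxcr5, which shares exon bases with another gene, was lower, at 0.122 and 0.454 CPM against 5.40 and 5.64. Cx3cr1, a receptor of circulating effector cells and of monocytes, was at 0.720 and 1.04 CPM in N4 against 3.57 and 3.18 in T4, with naive libraries at 8.04 and 7.37. S1pr5, a receptor for egress from tissues that natural killer cells also carry, was at 0.0272 and 0 CPM in N4 against 0.785 and 1.07 in T4, with naive libraries at 4.14 and 4.30. Naive libraries were highest for the last 2, as they were for the monocyte and natural killer cell marker sums.

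**Figure D4:**
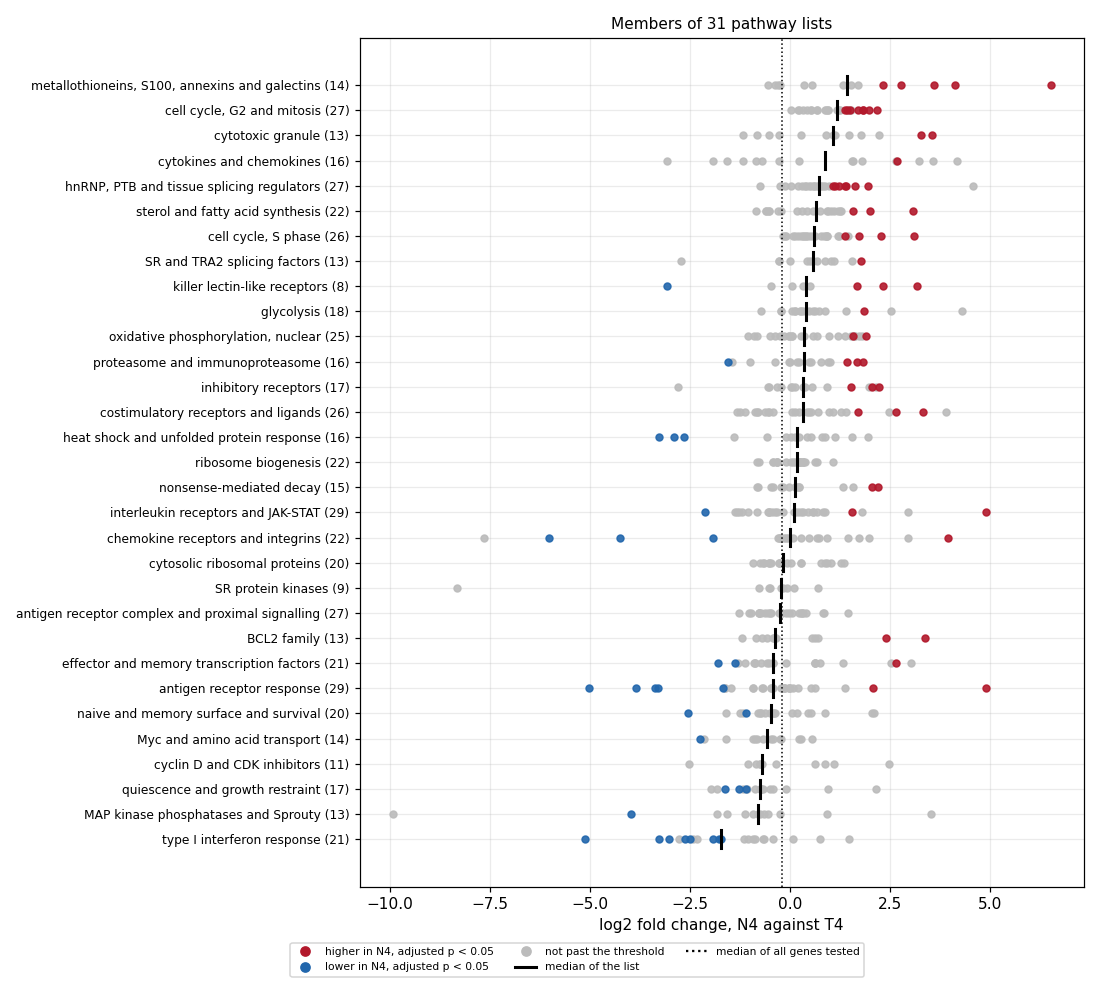
Log2 fold change in N4 against T4 (horizontal axis) of each tested member of the 31 pathway lists, with the number of members in parentheses; red and blue points passed the threshold as higher and lower, grey ones did not, black bars are list medians and the dotted line is the median of all genes, -0.20. The type I interferon list has the lowest median (-1.72) and the metallothionein, S100, annexin and galectin list the highest (1.42).

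The calls on both lists of cell cycle genes were all higher in N4. Of 27 genes of G2 and mitosis 8 were higher and none lower, all 27 had a positive log2 fold change, and the median was 1.16. Of 26 genes of S phase 4 were higher, none lower, and the median was 0.60. Under library size scaling these medians were 0.31 and -0.24, beside -1.05 for all genes, and the calls were 1 and 3. Under the length and GC correction they were 1.02 and 1.01, and 9 and 13 genes were higher. Pcna, the sliding clamp of replication, was at 752.0 and 845.3 CPM in N4 against 244.3 and 241.1 in T4, with naive libraries at 156.2 and 219.6 (log2 fold change 1.72, SE 0.27, adjusted p = 0.028). Ccne2, the S phase cyclin, was at 41.6 and 55.7 against 4.82 and 6.54. Rrm1, a subunit of the enzyme that makes deoxynucleotides, was at 53.3 and 45.0 against 20.2 and 18.1 CPM. N4 libraries were above T4 for each of these, and T4 libraries were above naive ones for Pcna and Rrm1.

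Kif11, a motor of the mitotic spindle, was at 18.8 and 20.3 CPM in N4 against 5.42 and 4.5 in T4, with naive libraries at 2.41 and 1.83 (log2 fold change 1.98, SE 0.28, adjusted p = 0.025). Cenpf, a kinetochore protein, was at 22.2 and 22.1 against 7.99 and 8.62 CPM, Mki67, the proliferation marker Ki-67, at 32.4 and 35 against 14.1 and 11.9, and Ccna2, cyclin A, at 61.3 and 50.4 against 20.7 and 18.9. For these genes too the order was N4, T4, naive. The checkpoint kinase Bub1, the topoisomerase Top2a, the spindle protein Nusap1 and the passenger protein Birc5 were the other 4 that were higher. Among 11 D-type cyclins, their kinases and the inhibitors of those kinases none passed, with a median of -0.71. The 5 cyclins and kinases had a median of -0.76 and ran from -2.52 to -0.36. The 6 inhibitors had a median of 0.75 and ran from -0.86 to 2.46, with Cdkn1b the lowest of them. Cdkn1b, the inhibitor p27, was at 8.89 and 11 CPM in N4 and 16.7 and 19.5 in T4 (log2 difference -0.86, SE 0.25, adjusted p = 0.080).

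Many promoters of mitotic genes hold the cell cycle homology region, or CHR, through which repressive complexes act in resting cells. The 250 bases before the start of Kif11 and Cenpf are shown because these 2 had the smallest p of the G2 and mitosis list. The sequences are from RefSeq on GRCm38.p6, Kif11 on the plus strand at chr19:37376132-37376381 and Cenpf on the minus strand at chr1:189688087-189688336, written along each gene's own strand. Capitals mark a match to TTTGAA on either strand.
Kif11: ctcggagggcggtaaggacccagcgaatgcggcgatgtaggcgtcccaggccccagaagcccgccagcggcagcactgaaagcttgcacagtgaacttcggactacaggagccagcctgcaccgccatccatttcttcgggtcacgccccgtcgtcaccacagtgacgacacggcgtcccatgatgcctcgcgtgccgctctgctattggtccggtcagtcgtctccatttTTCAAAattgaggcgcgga
Cenpf: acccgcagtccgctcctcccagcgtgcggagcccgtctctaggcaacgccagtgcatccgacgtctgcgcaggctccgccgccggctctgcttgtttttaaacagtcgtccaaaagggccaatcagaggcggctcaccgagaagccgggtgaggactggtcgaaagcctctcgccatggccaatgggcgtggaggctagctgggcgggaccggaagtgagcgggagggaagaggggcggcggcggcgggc
Kif11 held 1 match, on the minus strand, whose first base lay at position -19 from the start, and these letters were not in the Cenpf window. Of the 8 genes higher in N4, 7 had a promoter in the table and 3 of them held the letters. Over all 32851 promoters of that length 16% did. Over the whole G2 and mitosis list, called or not, 8 of 21 members with a promoter held the letters, so they did not set the called genes apart.

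Growth restraint genes had 3 of 17 lower in N4 and none higher, with a median of -0.75. Txnip, which limits glucose uptake, was at 14.6 and 9.72 CPM in N4 against 37.1 and 38.5 in T4, with naive libraries at 65.4 and 66.6. The order was the reverse of that of the cell cycle genes, and the log2 fold change was -1.64 (SE 0.27, adjusted p = 0.031). Sesn3, a stress sensor that restrains mTOR, was at 4.11 and 5.12 against 12.4 and 10.1 CPM, and Btg2 was the third. In the BCL2 family, which decides cell survival, 2 of 13 were higher. Bcl2a1d was at 534.9 and 681.0 CPM in N4 and 55.3 and 63.1 in T4, and Bcl2a1b at 541.7 and 683.3 against 104.5 and 129.7 (log2 fold changes 3.36 and 2.39, adjusted p = 0.014 and 0.023). The Bcl2a1 genes are near-identical copies, so their separate values are uncertain. The family's median of -0.38 lay below that of all genes and above it without N4 replicate 1 and under the length and GC correction.

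The list of metallothioneins, S100 proteins, annexins and galectins had 5 of 14 higher, none lower and a median of 1.42. S100a4, a motility protein of effector and memory T cells, was at 3397.0 and 4745.4 CPM in N4 against 211.3 and 261.4 in T4, with naive libraries at 150.3 and 424.9 (log2 fold change 4.11, SE 0.58, adjusted p = 0.025). Lgals1, the secreted lectin galectin-1, was at 13431.5 and 18257.9 CPM in N4 against 2163.2 and 2490.1 in T4, with naive libraries at 884.5 and 1628.5. Lgals3, another galectin, was at 538.7 and 475.4 against 106.6 and 96.4 CPM, with naive libraries at 214.3 and 349.6. N4 was highest for all of these. The other metallothioneins, Mt1 and Mt2, did not pass (adjusted p = 0.62 and 0.81). Mt1 was at 771.4 and 1801.8 CPM in N4 and 835.1 and 939.6 in T4, and Mt2 at 142.8 and 303.4 against 270.9 and 276.8, with overlapping groups.

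Sterols and fatty acids supply new membrane to dividing cells. Of 22 tested sterol and fatty acid synthesis genes 3 were higher, none lower, and the median was 0.65. Idi1, which supplies the isoprenoid unit, was at 48.0 and 59.8 CPM in N4 against 7.25 and 5.51 in T4, with naive libraries at 5.26 and 7.30 (log2 fold change 3.08, SE 0.31, adjusted p = 0.016). Msmo1, a sterol demethylation enzyme, was at 72.5 and 100.8 against 22.7 and 20.9 CPM, and Sc5d, a sterol desaturase, at 46.5 and 58.1 against 18.3 and 16.8. The 3 genes code for enzymes of cholesterol synthesis, and N4 was their highest group. The letters TCACNCCAC, a form of the sterol regulatory element, were in none of their 3 promoter windows on either strand, beside 1.05% of all promoters.

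Glycolysis had 1 of 18 entries higher, with a median of 0.39. Pgk1, an enzyme that makes ATP in glycolysis, was at 257.2 and 279.5 CPM in N4 and 78.8 and 70.2 in T4 (log2 fold change 1.85, SE 0.23, adjusted p = 0.022), and did not pass under library size scaling. Ldha, which makes lactate, overlapped at 527.6 and 220.8 against 397.9 and 324.4 CPM. Of 25 nuclear genes of oxidative phosphorylation 2 were higher, the complex III subunit Uqcrfs1 and cytochrome c, Cycs, with a median of 0.35. Among genes encoded in the mitochondrion 7 of 9 were higher, with a median of 1.78, and their sum was 34285.6 and 52410.7 CPM in N4 against 13470.4 and 13428.3 in T4, with naive libraries at 20173.3 and 31365.8. The mitochondrial list was used as a measure of RNA quality, and after the length and GC correction 3 of its genes passed.

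Among Myc and amino acid transport genes 1 of 14 was lower, the transporter Slc43a1, at 1.84 and 2.06 CPM in N4 and 12.0 and 6.58 in T4. None of 22 ribosome biogenesis genes and none of 20 cytosolic ribosomal protein genes passed, with medians of 0.16 and -0.17. Of the ribosomal protein genes 9 were lower under library size scaling (median -1.03, beside -1.05 for all genes) and 2 were higher under the length and GC correction, where 1 ribosome biogenesis gene was higher. Of 16 proteasome genes 3 were higher and 1 lower. The core subunits Psma1, at 1188.5 and 1550.9 CPM in N4 and 387.3 and 384.1 in T4, and Psma3, and the lid subunit Psmd14, were higher, whereas Psmb10, a subunit of the interferon-induced immunoproteasome, was at 99.1 and 71.9 against 248.4 and 254.3 CPM (log2 fold change -1.56, SE 0.26, adjusted p = 0.030).

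The type I interferon response is the antiviral programme that interferons induce. Of its 21 genes 8 were lower in N4 and none higher, and the median of -1.72 was the lowest of the 31 pathway lists (-2.57 under library size scaling). Oasl1, an antiviral synthetase-like protein, was at 0.145 and 0.147 CPM in N4 against 6.99 and 3.31 in T4, with naive libraries at 4.02 and 2.17 (log2 fold change -5.14, SE 0.61, adjusted p = 0.021). In the same order of groups, Ifit1, which binds viral RNA, was at 0.734 and 0.640, 6.10 and 7.37, and 6.21 and 3.68 CPM, and Ifit3, its partner, at 1.72 and 1.05, 12.1 and 10.3, and 7.58 and 4.98. For these 3 genes N4 was the lowest group, without overlap. Isg20, a nuclease, was at 17.1 and 15.4 CPM in N4 against 93.8 and 89.8 in T4, with naive libraries at 35.3 and 63.8 (log2 fold change -2.50, SE 0.34, adjusted p = 0.024). The synthetase Oas1a, its relative Oasl2, the feedback inhibitor Usp18 and the antiviral enzyme Rsad2 were the other 4. Ifi27l2a went against the list, at 3667.6 and 7409.6 CPM in N4 and 1810.8 and 2185.0 in T4, and did not pass (adjusted p = 0.11). Interferon genes are expressed by many cell types, and the macrophage and B cell marker sums were also lower in N4, whose part in this difference was not tested.

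Interferon acts through the interferon-stimulated response element, or ISRE. The promoters of Oasl1 and Ifit1, the 2 genes of smallest p, are shown over the 250 bases before their starts, from RefSeq on GRCm38.p6, both on the plus strand, at chr5:114922990-114923239 and chr19:34640639-34640888. Capitals mark matches to GAAANNGAA on either strand.
Oasl1: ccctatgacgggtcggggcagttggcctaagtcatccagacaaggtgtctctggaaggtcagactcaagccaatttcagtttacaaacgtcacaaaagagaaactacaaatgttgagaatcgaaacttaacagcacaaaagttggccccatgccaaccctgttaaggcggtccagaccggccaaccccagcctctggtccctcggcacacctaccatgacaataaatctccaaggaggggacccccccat
Ifit1: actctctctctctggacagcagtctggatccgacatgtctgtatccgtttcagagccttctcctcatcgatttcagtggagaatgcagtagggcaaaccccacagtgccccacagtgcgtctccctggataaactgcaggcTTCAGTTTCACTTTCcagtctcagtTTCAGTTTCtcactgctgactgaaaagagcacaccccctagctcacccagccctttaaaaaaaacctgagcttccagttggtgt
Ifit1 held 3 matches, all on the minus strand, whose first bases lay at -109, -103 and -84 from the start. The pair at -109 and -103 overlap each other. The Oasl1 window did not hold these letters. Of the 8 genes lower in N4, 7 had a promoter in the table and 4 of these held a match, beside 7.13% of all promoters. Over the whole list, called or not, 8 of 16 members with a promoter held one, so the letters did not set the called genes apart.

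Heat shock and unfolded protein response genes had 3 of 16 lower and none higher, with a median of 0.17. Hspa1a, the inducible HSP70 chaperone, was at 5.22 and 5.80 CPM in N4 against 53.9 and 54.1 in T4, with naive libraries at 0.706 and 2.27. In that order of groups its near-identical copy Hspa1b was at 8.43 and 11.8, 74.2 and 76.3, and 1.86 and 3.72 CPM. T4 was by far the highest group, as for Fos and Jun. N4 lay above naive libraries for both copies, as for Jun but not for Fos. Neither copy passed after the length and GC correction (adjusted p = 0.098 and 0.091), and counts may be divided between them. Ddit3, the stress transcription factor CHOP, was at 3.08 and 2.94 CPM in N4 against 19.7 and 18.4 in T4, with naive libraries at 14.7 and 10.7 (log2 fold change -2.66, SE 0.28, adjusted p = 0.016).

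Nuclear noncoding RNA, a measure of how much nuclear RNA a library holds, had 2 of 7 genes lower. Neat1 was at 20.7 and 26.0 CPM in N4 against 72.5 and 91.7 in T4, with naive libraries at 19.5 and 23.3, and Malat1, in that order of groups, at 251.8 and 325.9, 977.0 and 1061.7, and 987.1 and 822.7. Of 6 tested replication-dependent histone genes, whose messages mostly lack a poly(A) tail, Hist1h4d was higher, at 632.8 and 848.8 CPM in N4 and 119.6 and 127.9 in T4. Transcript length and GC content moved with the fold changes: among 1496 genes per quartile with a mean log2 CPM above 3, the quartile of shortest transcripts (median 665 bases) had a median log2 fold change of 0.89 and the others -0.29, -0.14 and 0.08. From the lowest to the highest quartile of GC content it was 0.69, 0.26, -0.06 and -0.53. After the correction for both, chosen after seeing the data, 102 of the 114 called genes that the naming rule picked remained past the threshold, and 92 did under library size scaling. The correction ended the calls of Cycs, Dusp1, Hnrnpa3, Hspa1a, Hspa1b, Id3, Ifng, Junb, Klrc2, Klrd1, mt-Atp6 and mt-Co2. Library size scaling ended those of Batf3, Ccna2, Cd200, Cd244a, Cenpf, Havcr2, Hnrnpa0, Hnrnpa3, Icos, Ifng, Il18r1, Kif11, Klrc2, Mbnl3, Mki67, Pgk1, Prss50, Psmd14, Qk, Rrm1, Sc5d and Uqcrfs1.

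Splicing regulation through Tra2b is the subject of the series. Of 27 hnRNP, PTB and tissue splicing regulators 7 were higher and none lower, with a median of 0.71. Hnrnpa0, an RNA-binding protein that stabilises messages, was at 89.1 and 70.9 CPM in N4 against 19.6 and 22.0 in T4, with naive libraries at 19.6 and 28.8 (log2 fold change 1.95, SE 0.29, adjusted p = 0.026). Qk, which binds introns and shapes exon choice, was at 9.83 and 10.6 against 3.09 and 3.61 CPM, and Mbnl3, a muscleblind protein, at 16.5 and 18.7 against 7.24 and 6.22. Hnrnpa3, Hnrnpu, Syncrip and Hnrnpd were the other 4. Under library size scaling none of the 27 passed, with a median of -0.15 beside -1.05 for all genes.

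Of 13 SR and TRA2 factors, which bind exonic enhancers, 1 was higher and none lower, with a median of 0.58. Srsf3 was at 1611.2 and 2098.4 CPM in N4 against 526.3 and 560.5 in T4, with naive libraries at 460.8 and 649.6 (log2 fold change 1.77, SE 0.30, adjusted p = 0.031). Tra2b was at 116.6 and 131.8 CPM in N4 against 95.2 and 92.0 in T4, with naive libraries at 87.5 and 76.5, and did not pass (log2 difference 0.41, SE 0.22, adjusted p = 0.28). Its difference was -0.46 under library size scaling, beside -1.05 for all genes. Its relative Tra2a was at 28.0 and 31.9 against 21.4 and 20.8 CPM (adjusted p = 0.20). None of 9 SR protein kinases passed. Clk1, which phosphorylates SR proteins, was at 26.3 and 31.8 CPM in N4 against 41.0 and 43.1 in T4, with naive libraries at 81.5 and 64.2 (log2 difference -0.53, SE 0.24, adjusted p = 0.21). Of 15 nonsense-mediated decay genes 2 were higher, the exon junction proteins Magoh, at 884.5 and 1147.5 against 230.2 and 259.4 CPM, and Magohb, at 264.0 and 310.9 against 56.5 and 69.5.

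Counts per transcript allowed the share of each gene's counts in each transcript to be compared. Of 10394 genes with at least 2 transcripts tested, 108 (1.04%) differed in relative transcript use between N4 and T4 in edgeR's diffSpliceDGE at an adjusted p under 0.05, and 1165 had an unadjusted p under 0.05. With 1 peptide library left out, 8 to 54 genes passed, fewest without T4 replicate 1. Of the 108, 23 also differed in level, beside 1830 of all 23003 genes tested for level. The 23003 include genes outside the 10394 tested for transcript use, so these 2 shares are not like for like. Of the 108, 33 had a mean log2 CPM of 5 or more and a transcript whose shares did not overlap between the peptides. The 6 named genes had the largest change in a transcript's share among these 33, so the size of their changes was part of the choice.

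Rnf114, an E3 ubiquitin ligase, had 51.2% and 59.0% of its counts in a decay transcript in T4 and 0.0% in both N4 libraries, with naive libraries at 15.4% and 2.8%. Its coding transcript Rnf114-201 took 91.0% and 89.5% in N4 and 15.4% and 1.3% in T4 (gene adjusted p = 0.035 in edgeR's diffSpliceDGE). Saraf, which brakes store-operated calcium entry, had 0.0% of its counts in a retained intron transcript in both N4 libraries, whereas that transcript took 84.0% and 70.6% in T4, with naive libraries at 71.5% and 76.5% (diffSpliceDGE adjusted p = 0.0022). For Rnf114 T4 stood apart from both other groups, and for Saraf N4 did. The N4 libraries disagreed on the rest of Saraf, with 89.5% and 33.4% in the coding transcript. H3f3b, a replacement histone, had 96.4% of its counts in H3f3b-201 in both N4 libraries and 37.8% and 50.0% in T4 (diffSpliceDGE gene adjusted p = 0.00064). Naive libraries had 10.1% and 85.3%, so the naive replicates differed by more than the peptide groups. The transcript that passed on its own was H3f3b-202 (diffSpliceDGE transcript adjusted p = 0.00065). It took 0.0% in both N4 libraries and 49.7% and 37.4% in T4, with naive libraries at 83.0% and 10.7%. Stk16, a Golgi kinase, had 81.0% and 74.0% in Stk16-201 in N4 and 32.4% and 11.1% in T4 (diffSpliceDGE gene adjusted p = 0.021). That transcript did not pass on its own (diffSpliceDGE transcript adjusted p = 0.91). The decay transcript Stk16-216 did (0.0066 in the same test), at 0.1% and 0.0% in N4 and 26.2% and 65.9% in T4, so its T4 replicates differed widely. Emc10, a subunit of a membrane protein insertion complex, had 34.9% and 75.1% in the coding transcript Emc10-202 in N4 and 0.2% and 0.6% in T4 (diffSpliceDGE adjusted p = 0.0011). Gnas, a G protein subunit with many overlapping transcripts, differed within T4, with 3.3% and 94.5% in Gnas-202, against 99.4% and 97.9% in N4 (diffSpliceDGE gene adjusted p = 0.045). The transcript that passed on its own was Gnas-211 (diffSpliceDGE transcript adjusted p = 0.035), at 0.0% in both N4 libraries and 74.1% and 5.0% in T4. Estimated transcript counts also vary with how reads are assigned, an error that the test does not see.

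Transcripts holding the poison exon of Tra2b, an exon that brings in an early stop codon and exposes the message to decay, took 32.0% and 28.7% of its counts in N4 against 42.4% and 46.4% in T4, with naive libraries at 38.5% and 38.2%. N4 was lowest without overlap, by 14.1 percentage points from the T4 mean, and by 14.3 points after division by transcript length. The exon lies in the Tra2b gene at chr16:22258986-22259261 on GRCm38. Tra2a differed in the same sense in its coding transcript: Tra2a-201 took 59.8% and 58.1% in N4 against 35.9% and 31.5% in T4, with naive libraries at 32.8% and 51.5%. The retained intron transcript Tra2a-203 took 21.4% and 20.1% in N4 and 40.7% and 43.1% in T4, while the decay transcript Tra2a-202 overlapped between the peptides, at 12.6% and 10.9% against 10.8% and 15.5%. Neither Tra2a nor Tra2b passed the transcript test (diffSpliceDGE adjusted p = 1.0 for each), and the smallest p that an exact permutation test could give for 2 against 2 libraries is 0.33. Over all protein-coding genes, retained intron transcripts held 3.18% and 3.26% of counts in N4 against 4.36% and 4.25% in T4, with naive libraries at 4.32% and 3.63%. N4 was the lowest group in this share too. Decay transcripts of all protein-coding genes overlapped between the peptides, at 2.16% and 1.62% in N4 and 3.26% and 1.62% in T4, and naive libraries, at 1.77% and 1.3%, had the lowest mean.

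**Figure D5:**
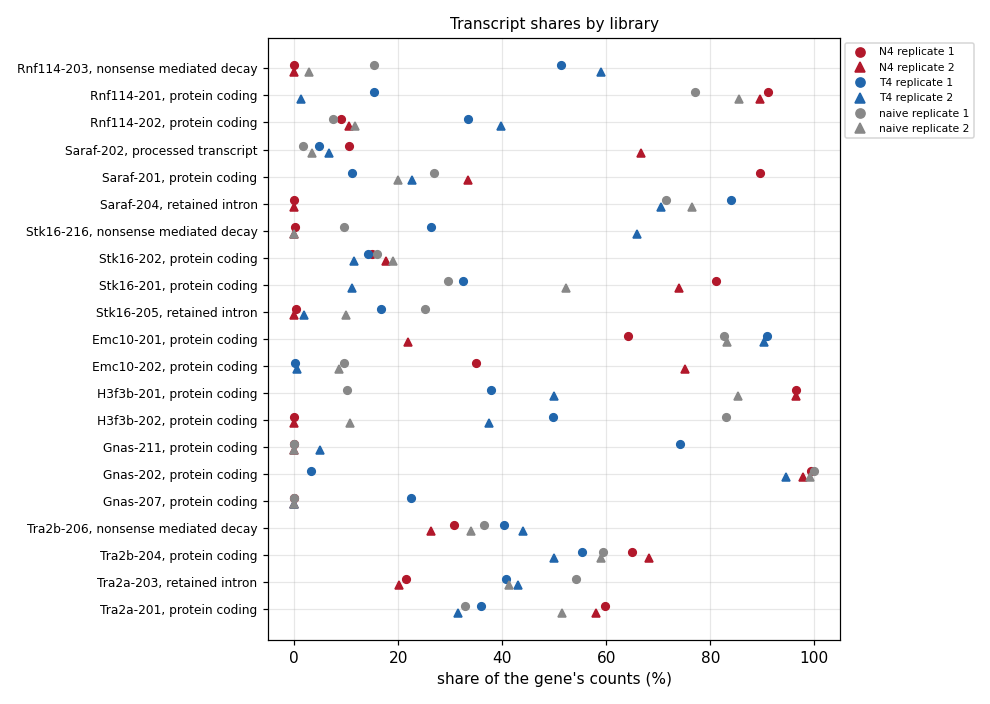
Share of the gene's estimated counts (horizontal axis, %) in transcripts of the 6 named genes and of Tra2b and Tra2a, by library; red is N4, blue T4 and grey naive, circles are replicate 1 and triangles replicate 2. The Tra2b decay transcript lies at 26.3% to 30.7% in N4 and 40.4% to 44.0% in T4. Emc10, Saraf, Gnas, Stk16 and H3f3b show wide gaps between replicates of at least 1 group, which for H3f3b is the naive one.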

How the data were processed

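Polyadenylated RNA of OT-I CD8+ T cells was measured in 6 libraries, 2 each for N4, T4 and naive cells. RNA was prepared with a miRNeasy Micro kit and libraries with a SMARTer ultra-low input kit, per the labels' protocols. The authors deposited estimated counts per gene and per transcript as whole numbers, not normalized, so no rounding was needed. The submitters' processing notes name STAR 2.7.1a, SAMtools 1.9, StringTie 2.1.0, R 4.0.5, DESeq2 1.30.1 and the build mm39, with no roles. Which annotation release was used is not stated in those notes. If the estimates derive from coverage, totals are not numbers of reads, so they do not give the depth in reads, and floors cover counting error only. Replicates differed beyond sampling noise (chi-square per degree of freedom 343.4 in N4, 118.4 in T4 and 2207 in naive). Whether replicates are separate mice is not stated in the labels, so p-values measure only the spread between these libraries.

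Genes were tested with edgeR 4.0.16 in R 4.3.3 (TMM, filterByExpr by group, quasi-likelihood test of group means in a fit of the 6 libraries, Benjamini-Hochberg over 23003 genes, threshold 0.05). The third group adds to the estimate of spread, at a biological coefficient of variation of 0.67 with 3 residual degrees of freedom. The standard error of a log2 fold change was taken from its F statistic, as the size of the change over the root of F. Levels are in TMM-scaled CPM. Transcript usage was tested with diffSpliceDGE and Simes p-values. Symbols were found for 94.1% of gene identifiers, and GENCODE M21 models on GRCm38, another build than that of the files, gave transcript types, lengths, GC content and exons. Promoters came from the RefSeq table, in which Ccne2 was not matched. The procedures were also run on simulated counts. For transcripts the spread was set in advance rather than taken from these libraries. That run therefore does not give the rate of false calls in the transcript test here.

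The members and the 43 gene lists (31 pathway, 9 marker and 3 quality lists) were chosen with earlier results of these data known. Named genes were Tra2b, the 15 highest and 15 lowest fold changes among called genes whose mean log2 CPM was 3 or more and no overlap between groups, up to 4 called members of smallest p per list (2 where none was called), 6 genes for transcript use, and members whose role asked for a value. Some genes that the rule names are not reported here. Predicted genes, pseudogenes, receptor segments, and ribosomal and mitochondrial genes were left out of the ranking by fold change. Of the 131 genes the rule named, 30 share exon bases with another gene and 16 with a protein-coding gene, and the kit does not mark strand. Alternatives were DESeq2 1.42.0, library size scaling, other filters, a fit of 4 libraries, a replicate block, leaving out each library, and a correction for transcript length and GC content.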

Additional observations from a re-analysis of the deposited data

How the results depend on the processing

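The count of 1830 genes past the threshold (801 higher, 1029 lower) was 5750 with DESeq2 (2758, 2992), 3834 with no filter (1467, 2367), 3308 with a filter of at least 1 CPM in both libraries of N4 or of T4 (1742, 1566) and 5281 with the 4 peptide libraries alone (2616, 2665). Library size scaling gave 320 higher and 1736 lower, and the transcript length and GC content correction, chosen after seeing the data, 1277 higher and 1170 lower. When 1 library at a time was left out, the count ran from 0 to 4547, with 0 to 2312 higher and 0 to 2235 lower. It was 0 without N4 replicate 2 or T4 replicate 2, where the smallest adjusted p was 0.06 and 0.056, and 4437 and 4547 without naive replicate 1 or 2. All 1830 genes kept their direction in every alternative that tested them, except that 1818 did under the length and GC correction. The filter of 1 CPM tested 1614. For genes without overlap between N4 and T4, a kept direction with 1 library left out was nearly fixed in advance. A replicate block gave 3367 genes (1714 higher, 1653 lower). Replicate numbers were shared without any label that pairs the samples, and deviations of same-numbered libraries correlated at 0.14 between N4 and T4, 0.281 between N4 and naive and 0.169 between T4 and naive.

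Transcript usage, 108 genes, gave 358 with the 4 peptide libraries alone and 40 with the replicate block, and 8 to 54 without a peptide library. The sign turned for Tra2b (-0.46) and Trbc1 (-0.06) under library size scaling, which moved the median of all genes from -0.20 to -1.05, so both stayed above that median. It turned for Srpk3 (0.0) without T4 replicate 2 (-9.25 to 0.0 over the left-out libraries), and none of these 3 genes passed there. List medians less that of all genes turned for D cyclins and inhibitors without N4 replicate 2 (0.02, lowest -0.54 over the left-out libraries), for cytokines and chemokines without N4 replicate 1 (-0.27, highest 1.63), for effector and memory transcription factors without N4 replicate 2 (0.11, lowest -0.49) and under the length and GC correction (0.13), and for the BCL2 family without N4 replicate 1 (0.24) and under that correction (0.64). The cause was not tested for any of these, except that a left-out peptide library leaves its arm with 1 sample, assumed to vary like the other groups. With 2 libraries a group, small changes are not detectable.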
